A study of Homo sapiens with 4 samples.

Results

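The transcripts described here are those of 10 small nucleolar RNA (snoRNA) host genes, GAS5, SNHG1, SNHG5, SNHG6, SNHG7, SNHG8, SNHG12, SNHG15, SNHG16 and ZFAS1. They were chosen by gene symbol and not by a rule on measured values, with earlier results of these data known. Of the 38510 annotated transcripts of 13036 genes in the data, 43 belonged to these hosts, and they came from 7 of the 10 genes. GAS5 had 9 listed transcripts, SNHG1 had 8, SNHG15 had 7, SNHG16 had 6, SNHG5 and SNHG8 had 5 each, and SNHG6 had 3. SNHG7, SNHG12 and ZFAS1 had no row, and their levels were not analysed here. Every listed transcript reached more than 0.5 FPKM in at least 1 library, the lowest maximum being 0.504. Whether the 3 unlisted genes lay under that level could not be seen from the data. The transcripts fell into 7 classes, and no row had the class antisense.

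To investigate the effect of KIAA1429, the study depleted it in HCCLM3, an established human hepatoma cell line. Cells were infected with lentivirus carrying a control hairpin (shCtrl, 2 libraries) or 1 hairpin against KIAA1429 (shKIAA1429, 2 libraries), and RNA was sequenced in bulk. KIAA1429, listed as VIRMA, is a subunit of the methyltransferase for N6-methyladenosine (m6A), a mark on RNA. Whether the 2 libraries of a group came from separate cultures was not stated, so p-values measure only the spread between these libraries, which may be technical.

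snoRNAs guide the chemical modification of ribosomal RNA and other RNAs: box C/D snoRNAs direct ribose methylation and box H/ACA snoRNAs direct pseudouridylation. Most human snoRNAs are cut from the introns of longer host genes after splicing. Some hosts encode proteins of translation or ribosome assembly, and others, such as the SNHG genes, leave a spliced RNA with little coding capacity. Several of these spliced RNAs are short-lived, being removed by nonsense-mediated decay while translated, and many host genes start transcription at a terminal oligopyrimidine (TOP) element, as ribosomal protein genes do.

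The 7 listed hosts carried 28 of the 37 snoRNAs that RefSeq places within the 10 genes. GAS5 held 11, of which 10 were box C/D snoRNAs of the SNORD series. SNHG1 held 9, among them SNORD22 and SNORD25 to SNORD31. SNHG16 held 3 (SNORD1A, SNORD1B and SNORD1C), SNHG5 held SNORD50A and SNORD50B, and SNHG6 held SNORD87. The box H/ACA snoRNAs SNORA24 and SNORA9 lie in SNHG8 and SNHG15. The RefSeq table is built on GRCh38.p14 and was used for names only. In the GRCh37 annotation, which the data use, 2 of these snoRNAs had positions. SNORD1B, 84 bases, lay at chr17:74557191-74557274 on the plus strand and was intronic in 6 of 6 listed SNHG16 transcripts. SNORD78, 65 bases, lay at chr1:173834760-173834824 on the minus strand. It was intronic in 9 of 9 listed GAS5 transcripts by the exons of that annotation. The position that the data list for GAS5-208, chr1:173835005-173836178, does not reach SNORD78. Both snoRNAs are shown because they are the intronic products that the spliced transcripts below do not contain. Capitals mark every match to TGATG, the inner letters of box C, and to CTGA, the letters of box D, on the sense strand.
SNORD1B: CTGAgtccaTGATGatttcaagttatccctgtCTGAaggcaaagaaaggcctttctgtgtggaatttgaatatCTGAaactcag
SNORD78: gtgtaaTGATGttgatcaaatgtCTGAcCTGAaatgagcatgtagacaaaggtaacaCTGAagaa

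The starts of the listed transcripts were read next. A window of 15 bases before and 15 bases from each listed start was searched on the sense strand for CTTTC and CTTTT, letters chosen after the starts of the hosts had been seen. In 5 of the 7 hosts (71.4%) at least 1 listed transcript began exactly with one of them: GAS5, SNHG5, SNHG6, SNHG8 and SNHG16. As the letters came from these starts, a high share in the hosts was fixed in advance and is a description only. Neither SNHG1 nor SNHG15 had a match anywhere in the window. Of all 13028 genes with a window, 1.33% began with these letters, as did 2.03% of the 5525 genes with 3 to 9 listed transcripts and 25.3% of 79 cytosolic ribosomal protein genes. Anywhere in the window, the letters were found in 15.0% of all genes and in 73.4% of the ribosomal protein genes. Of the 43 host transcripts, 6 began with the letters. Windows of 4 of these transcripts are shown, since they carry the shared start, and the capitals mark the matched letters at the listed start. They lie on GRCh37 at chr1:173837113-173837142 (minus strand), chr6:86388437-86388466 (minus strand), chr4:119199898-119199927 (plus strand) and chr17:74553836-74553865 (plus strand), in the order given.
GAS5-219: caggcaccatactgtCTTTTcgaggtagga
SNHG5-202: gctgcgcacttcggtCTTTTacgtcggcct
SNHG8-205: gccgaaggcctcggcCTTTCacattcggga
SNHG16-204: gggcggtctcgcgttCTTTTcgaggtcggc
The GAS5 transcript with this start was a minor one, with a mean of 1.63 FPKM over the 4 libraries, whereas SNHG6-205, which also began with the letters, had a mean of 32.4 FPKM. The most abundant transcripts of GAS5, SNHG8 and SNHG16 (GAS5-221, SNHG8-201 and SNHG16-207) did not begin with the letters. Those of SNHG5 and SNHG6 (SNHG5-202 and SNHG6-205) did.

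The values are FPKM, that is, fragments divided by transcript length and by all mapped fragments of that library, and a gene's level is the sum over its listed transcripts. Read depth is unknown. The targeted gene was read first. VIRMA had 9.37 and 14.1 FPKM in the shCtrl libraries and 6.90 and 8.52 in the shKIAA1429 libraries. The log2 difference of -0.53 ± 0.24 (SE) had an adjusted p of 0.917 (limma). Both knockdown values lay under both control values. Of 12 hepatocyte markers only SERPINA1 had a row (3.34 to 5.63 FPKM), while ALB, the defining marker, had none. Of 6 fibroblast markers 5 had a row, with summed levels of 71.9 and 79.6 FPKM in shCtrl and 76.2 and 76.8 FPKM in shKIAA1429, most of it COL3A1. Of 5 immune markers 1 had a row, CD14 at 2.68 to 4.12 FPKM, and none of 4 endothelial markers had one. LUM, a fibroblast marker, had 7.92 and 7.04 FPKM in shCtrl and 2.73 and 2.88 FPKM in shKIAA1429 (adjusted p = 0.342, limma). Of the 4 fibroblast markers tested, 3 had a log2 fold change above 0, COL3A1 (0.097) and COL1A1 (0.38) among them. The part of LUM in any value below was not tested.

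The hosts differed in level by a wide margin. Their means over the 4 libraries, in FPKM, were 96.2 for GAS5, 75.4 for SNHG8, 47.7 for SNHG6, 28.2 for SNHG16, 14.4 for SNHG5, 14.3 for SNHG15 and 12.8 for SNHG1. The ranges of SNHG8, SNHG6, SNHG16 and SNHG5 stood apart from each other in that order in all 4 libraries. GAS5 was above SNHG8 in 3 of 4 libraries, so these neighbours did not separate, and SNHG5, SNHG15 and SNHG1 overlapped in range. Together the 7 hosts summed to 316 and 232 FPKM in shCtrl replicates 1 and 2, and to 342 and 267 FPKM in shKIAA1429 replicates 1 and 2. That was 0.0854% and 0.0619% of the summed FPKM in the control libraries, and 0.0875% and 0.0698% in the knockdown libraries. GAS5 alone held between 28.5% and 39.3% of the sum.

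**Figure D1:**
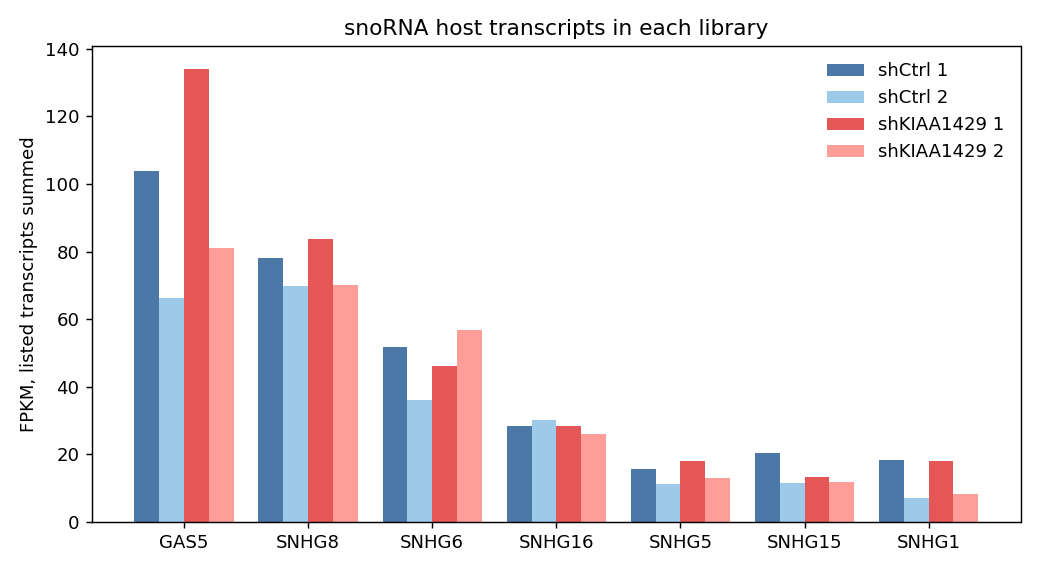
Summed FPKM of the listed transcripts of each host (vertical axis) in the 4 libraries, 1 bar per library. GAS5 ranges from 66.2 to 134 FPKM, and in no host do both red bars (shKIAA1429) lie above, or both below, the blue bars (shCtrl).

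No host passed the test for a difference after depletion of KIAA1429. The groups overlapped in each host, and 0 of 7 passed an adjusted p under 0.05 with an absolute log2 fold change over 1 (limma, over 11657 genes with at least 1 FPKM in at least 2 libraries). Across all genes tested 0% passed both thresholds, the lowest adjusted p being 0.238. At an unadjusted p under 0.05 there were 0 of 7 hosts, against 5.63% of all genes. Over all genes, 33.6% had groups that did not overlap, 16.9% higher and 16.7% lower in shKIAA1429, against 0 of the 7 hosts. Of the hosts 5 of 7 had a log2 fold change above 0, as had 48.1% of all genes. The median log2 fold change of the hosts was 0.10, and that of all genes was -0.0083. The fold changes are differences of log2(FPKM + 1), and a lower level cannot be told apart from fewer cells carrying the RNA in bulk samples.

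GAS5 (chr1:173833038-173838020, minus strand), a gene named for its accumulation in growth-arrested cells, had 104 and 66.2 FPKM in shCtrl replicates 1 and 2. It had 134 and 80.9 FPKM in shKIAA1429 replicates 1 and 2. Both libraries numbered 1 were above both numbered 2, and the groups overlapped. On the log2 scale shKIAA1429 exceeded shCtrl by 0.33 ± 0.33 (SE, 95% interval -0.53 to 1.18, adjusted p = 0.984, limma), and without shKIAA1429 replicate 1 the value was -0.034.

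SNHG1 (chr11:62619460-62623386, minus strand) had 18.1 and 6.96 FPKM in shCtrl and 17.9 and 8.33 FPKM in shKIAA1429, replicate 1 first. The libraries numbered 1 were again the higher, and the gap between the numbers was wider than that between the groups. The log2 fold change of 0.10 ± 0.54 (SE, adjusted p = 0.999, limma) carried the widest interval of the hosts, from -1.29 to 1.50. It was -0.53 without shCtrl replicate 2 and -0.40 without shKIAA1429 replicate 1.

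SNHG5 (chr6:86386708-86388454, minus strand) had 15.7 and 11.2 FPKM in shCtrl and 17.9 and 12.9 FPKM in shKIAA1429. Both libraries numbered 1 were above both numbered 2, and the groups overlapped. The fold change was 0.19 ± 0.24 in log2 units (SE, 95% interval -0.45 to 0.82, adjusted p = 0.987, limma), and it was -0.042 without shCtrl replicate 2 and -0.035 without shKIAA1429 replicate 1.

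SNHG8 (chr4:119199864-119200978, plus strand) was the steadiest of the abundant hosts. It had 77.9 and 69.9 FPKM in shCtrl and 83.7 and 70.1 FPKM in shKIAA1429. The group difference, 0.054 ± 0.15 in log2 units (SE, 95% interval -0.33 to 0.44, adjusted p = 0.999, limma), was the smallest of the hosts. It was -0.024 without shCtrl replicate 2 and -0.073 without shKIAA1429 replicate 1.

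SNHG6, on chromosome 8, did not share the order of the hosts above. It had 51.8 and 36.2 FPKM in shCtrl and 46.1 and 56.6 FPKM in shKIAA1429, so the highest value was shKIAA1429 replicate 2 and the lowest shCtrl replicate 2. The fitted log2 difference was 0.23 ± 0.22 (SE, 95% interval -0.34 to 0.81, adjusted p = 0.981, limma), or -0.020 without shCtrl replicate 2.

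SNHG15 (chr7:45022622-45026560, minus strand) had 20.4 and 11.5 FPKM in shCtrl and 13.3 and 11.8 FPKM in shKIAA1429. Only shCtrl replicate 1 stood apart. The sum gave a log2 difference of -0.27 ± 0.29 (SE, 95% interval -1.02 to 0.47, adjusted p = 0.987, limma), and it was 0.11 without shCtrl replicate 1.

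SNHG16 (chr17:74553848-74561430, plus strand) varied least relative to its level, with 28.3 and 30.1 FPKM in shCtrl and 28.4 and 25.9 FPKM in shKIAA1429. Its log2 difference was -0.10 ± 0.14 (SE, 95% interval -0.45 to 0.25, adjusted p = 0.987, limma). When each library was scaled to 1000000 summed FPKM, the groups of SNHG16 no longer overlapped and both knockdown libraries were the lower.

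**Figure D2:**
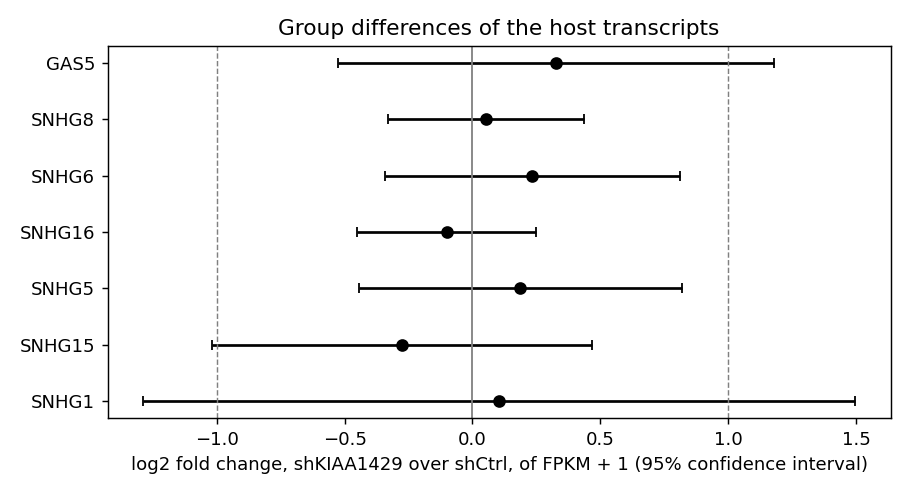
Log2 fold change of FPKM + 1, shKIAA1429 over shCtrl (horizontal axis), for each host, with the 95% confidence interval from limma as the bar; dashed lines mark the fold threshold of 1 on either side of 0. Every interval spans 0, from -1.29 to 1.50 in SNHG1 and from -0.45 to 0.25 in SNHG16.

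The order by replicate number was the most frequent pattern among the hosts. In 5 of 7 (GAS5, SNHG1, SNHG5, SNHG8 and SNHG15) both libraries numbered 1 were above both numbered 2, against 22.0% of all genes tested. The labels do not say that the numbers mark a batch, a day or a culture, and what moved with them was not tested. The 5 other genes, of 4916 with a mean of at least 10 FPKM, whose profile over the 4 libraries lay nearest to the median profile of the hosts were TMEM200A, G0S2, TRIOBP, RSL24D1 and LACTB. Likeness was the Euclidean distance of the deviations of log2(FPKM + 1) from the 4-library mean, and it ran from 0.0851 to 0.0927. G0S2, the nearest in level to SNHG8, had 73.9 and 54.0 FPKM in shCtrl and 73.9 and 62.6 FPKM in shKIAA1429. A likeness over 4 libraries is a description only.

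To see which transcripts made up these sums, each listed transcript was examined. Of the 43, 30 passed the filter and were tested among 24996 transcripts, and 0 of the 30 passed both thresholds, as did 0% of all transcripts. None of the 30 had an unadjusted p under 0.05, against 6.28% of all. A log2 fold change above 0 was found in 21 of the 30, against 48.7% of all. In 4 of the 30 (2 higher, 2 lower) the groups did not overlap, against 33.5% of all transcripts. The higher ones were SNHG15-203 and SNHG15-210 and the lower ones SNHG16-208 and SNHG5-201, of which all but SNHG15-203 were named after their values were seen. No transcript was at or under 0.5 FPKM in both libraries of 1 group and at or above 5 FPKM in both of the other. A mean of at least 5 FPKM was reached by 14 transcripts, and the 29 others had means between 0.422 and 4.53 FPKM.

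In GAS5, 3 spliced transcripts held most of the signal. GAS5-221 had 27.9 and 11.8 FPKM in shCtrl and 58.3 and 13.4 FPKM in shKIAA1429. Its value in shKIAA1429 replicate 1 was the highest of any host transcript and made 43.5% of the gene's sum there, against 16.6% to 26.9% in the other libraries. Its log2 difference was 0.60 ± 0.87 (SE, 95% interval -1.86 to 3.07, adjusted p = 1.00, limma), and it was -0.42 without that library. GAS5-209, with 13 exons and a spliced length of 723 bases, had 22.7 and 9.81 FPKM in shCtrl and 28.4 and 17.7 FPKM in shKIAA1429, again higher in both libraries numbered 1. GAS5-224 had 30.1 and 21.5 FPKM in shCtrl and 25.0 and 27.3 FPKM in shKIAA1429, with no order by group or number. Of these 3 transcripts, GAS5-221 and GAS5-209 thus had the number order of the gene, and GAS5-224 was higher in replicate 1 in shCtrl alone.

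In SNHG15, the high control library came from 2 transcripts, both named after their values were seen. SNHG15-208 had 5.92 FPKM in shCtrl replicate 1 and was listed at 0 in the other 3 libraries. SNHG15-205 had 5.08 FPKM in shCtrl replicate 1, 0.214 FPKM in shCtrl replicate 2 and was listed at 0 in both knockdown libraries. These transcripts made 29.0% and 24.9% of the gene's sum in that 1 library. The main transcript, SNHG15-203, had 5.79 and 5.77 FPKM in shCtrl and 7.68 and 6.67 FPKM in shKIAA1429. Its log2 difference was 0.27 ± 0.17 (SE, adjusted p = 0.973, limma). The gene's sum and its main transcript therefore pointed in opposite directions, and neither passed the test.

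SNHG1 had no transcript with a mean of 5 FPKM. Its most abundant, SNHG1-213 and SNHG1-205, were named after their values were seen. SNHG1-213 had 6.50 and 0.951 FPKM in shCtrl and 4.29 and 2.39 FPKM in shKIAA1429. SNHG1-205 had 4.27 and 0.388 FPKM in shCtrl and 4.93 and 0.596 FPKM in shKIAA1429. Against these, SNHG1-212 was listed at 0 in both libraries numbered 1 and had 1.16 FPKM in shCtrl replicate 2 and 1.13 FPKM in shKIAA1429 replicate 2. How fragments were divided among overlapping transcripts was not stated, so values of single transcripts of 1 gene are less certain than their sum.

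**Figure D3:**
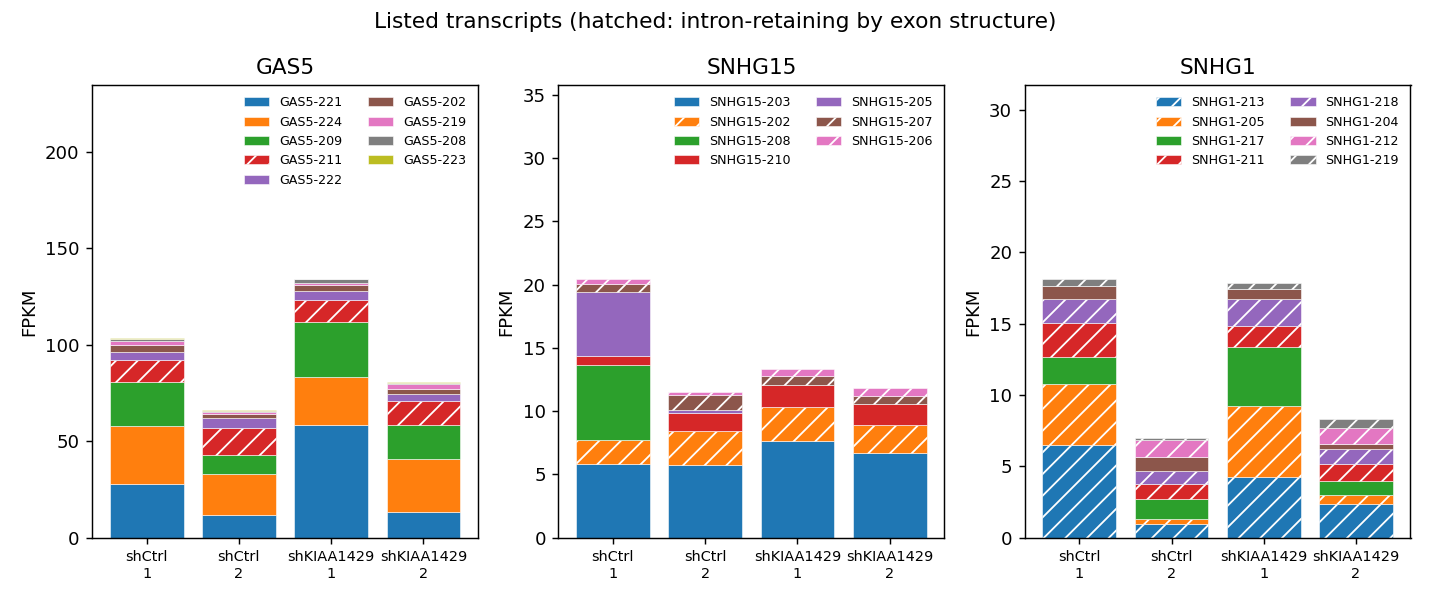
FPKM of the listed transcripts of GAS5, SNHG15 and SNHG1 (vertical axes, own scale in each panel), stacked per library; hatching marks transcripts that retain an intron by exon structure. GAS5-221 reaches 58.3 FPKM in shKIAA1429 replicate 1, and SNHG15-205 and SNHG15-208 appear as large blocks only in shCtrl replicate 1.

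SNHG6 was made up of 2 main transcripts. SNHG6-205 had 37.6 and 21.5 FPKM in shCtrl and 28.4 and 42.2 FPKM in shKIAA1429, the same order of libraries as the gene. SNHG6-203 was even, at 13.7 and 14.1 FPKM in shCtrl and 16.9 and 13.5 FPKM in shKIAA1429. In SNHG8, SNHG8-201 had 31.2 and 25.6 FPKM in shCtrl and 32.9 and 28.8 FPKM in shKIAA1429. The lesser SNHG8-203 and SNHG8-205 ranged from 9.64 to 16.2 FPKM and from 7.62 to 13.7 FPKM, each higher in both libraries numbered 1. SNHG5-202, the main SNHG5 transcript, had 10.7 and 6.29 FPKM in shCtrl and 13.0 and 9.61 FPKM in shKIAA1429. SNHG16-207 ranged from 13.3 to 16.6 FPKM and SNHG16-202 from 5.08 to 6.88 FPKM, with groups that overlapped in both.

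An intron that is retained stays part of the RNA, together with any snoRNA it holds. The data give all 43 transcripts 1 class, lincRNA, so retention was read from exon structure, a rule set after the data were seen. A transcript was called intron-retaining when 1 of its exons held a whole intron of another listed transcript of the gene (GENCODE 44 exons on GRCh37). All 43 identifiers were found there, and 16 had the same start and end as in the data. By this rule 16 of 43 transcripts in 6 of the 7 hosts retained an intron in the GENCODE 44 structure, and SNHG6 had none. The positions that the data list for SNHG15-206, SNHG5-206 and SNHG16-206 do not span in whole the introns they were called for. Their means were 0.454, 0.933 and 0.631 FPKM, and they count as intron-retaining in the shares below. Introns retained by 3 of them are shown to make the difference between the RNAs visible, with the first GT and the last AG, the usual splice site letters, in capitals. SNHG8-204 retained chr4:119200293-119200543 (plus strand, 251 bases), spliced out in SNHG8-201, SNHG8-202 and SNHG8-205. GAS5-211 retained chr1:173836182-173836292 (minus strand, 111 bases), spliced out in GAS5-222, and SNHG1-213 retained chr11:62619909-62620127 (minus strand, 219 bases), spliced out in SNHG1-217.
SNHG8-204: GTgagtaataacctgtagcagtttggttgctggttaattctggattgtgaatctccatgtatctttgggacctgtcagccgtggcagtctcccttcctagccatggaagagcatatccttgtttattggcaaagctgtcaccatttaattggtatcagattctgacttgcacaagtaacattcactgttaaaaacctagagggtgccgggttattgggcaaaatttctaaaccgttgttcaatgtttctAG
GAS5-211: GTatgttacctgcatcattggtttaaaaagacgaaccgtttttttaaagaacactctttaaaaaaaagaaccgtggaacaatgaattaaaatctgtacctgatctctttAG
SNHG1-213: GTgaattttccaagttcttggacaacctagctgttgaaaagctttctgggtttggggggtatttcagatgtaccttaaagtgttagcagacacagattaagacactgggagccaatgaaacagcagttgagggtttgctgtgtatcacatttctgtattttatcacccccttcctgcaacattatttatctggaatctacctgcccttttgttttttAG

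The intron-retaining transcripts of GAS5 and SNHG8 did not follow the sum of the other transcripts of their genes. GAS5-211 had 11.3 and 13.8 FPKM in shCtrl and 11.3 and 12.6 FPKM in shKIAA1429, while the other GAS5 transcripts summed to 92.4 and 52.4 FPKM in shCtrl and to 123 and 68.4 FPKM in shKIAA1429. SNHG8-204 had 18.9 and 24.0 FPKM in shCtrl and 21.3 and 23.2 FPKM in shKIAA1429, while the other SNHG8 transcripts summed to 59.1 and 45.9 FPKM in shCtrl and to 62.4 and 46.9 FPKM in shKIAA1429. In both genes the intron-retaining RNA was lower in the libraries numbered 1, in which the sum of the other transcripts was higher. GAS5-222, the only listed transcript that splices out the intron of GAS5-211, did not have that order. It had 4.38 and 5.32 FPKM in shCtrl and 4.97 and 3.46 FPKM in shKIAA1429. The intron-retaining transcripts of SNHG1 were higher in the libraries numbered 1. They summed to 15.3 and 4.61 FPKM in shCtrl and to 13.0 and 6.97 FPKM in shKIAA1429. Those of SNHG5 were lower in replicate 1 within each group, at 2.36 and 2.80 FPKM in shCtrl and 1.83 and 1.88 FPKM in shKIAA1429.

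Expressed as a share of the gene, the intron-retaining RNA of GAS5 was 10.9% and 20.9% in shCtrl and 8.41% and 15.5% in shKIAA1429. In SNHG8 it was 24.2% and 34.3% in shCtrl and 25.5% and 33.0% in shKIAA1429. SNHG15 had 14.4% and 36.0% in shCtrl and 29.0% and 29.6% in shKIAA1429, its low value being that of the library with the extra SNHG15-205 and SNHG15-208. In GAS5, SNHG8, SNHG15 and SNHG16, 4 of the 6 hosts with both kinds of transcript, both libraries numbered 1 had a lower share than both numbered 2, against 23.5% of 1622 genes with both kinds.

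Between the groups, the shares overlapped in 5 of the 6 hosts. SNHG16 had 27.1% and 27.9% in shCtrl and 23.1% and 28.2% in shKIAA1429. SNHG1, in which 6 of 8 transcripts hold the intron that SNHG1-217 lacks, had 84.6% and 66.2% in shCtrl and 72.8% and 83.7% in shKIAA1429. Only in SNHG5 did the groups not overlap, with 15.0% and 25.1% in shCtrl and 10.2% and 14.6% in shKIAA1429, a difference of -7.64 percentage points that ran from -12.7 to -2.61 when 1 library was left out, the smallest being without shCtrl replicate 2. Shares whose groups did not overlap were found in 33.5% of the 1622 genes and in 1 of the 6 hosts. The smallest two-sided p that an exact permutation test of 2 against 2 libraries can give is 0.333, so that test could not reach 0.05 for any share, and no other test was run on the shares.

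**Figure D4:**
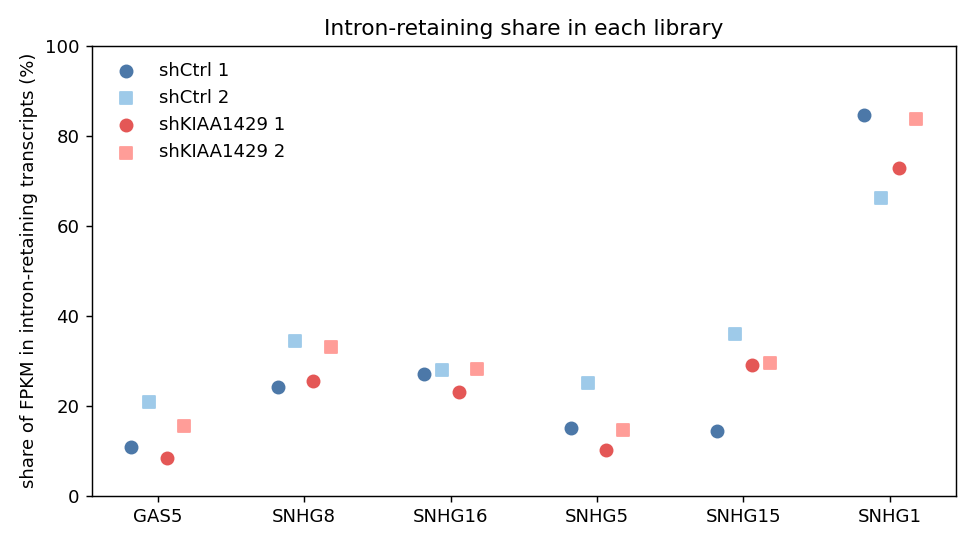
Share of each host's summed FPKM in intron-retaining transcripts (vertical axis, percent), 1 point per library; circles are replicates 1 and squares replicates 2. In GAS5, SNHG8, SNHG16 and SNHG15 both circles lie under both squares, and in SNHG5 alone both shKIAA1429 points (10.2% and 14.6%) lie under both shCtrl points (15.0% and 25.1%).

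Since KIAA1429 belongs to the m6A writer complex, the spliced sequences were searched on the sense strand for GGAC, the core letters of the most common m6A context. The search describes sequence only, and methylation was not analysed here. GGAC was present in 40 of the 43 transcripts, and the 3 without it were those of SNHG6. The median density was 3.73 matches per kilobase in the host transcripts, 3.38 in 985 lincRNA transcripts and 3.98 in 37441 listed transcripts. Among the hosts it was highest in SNHG8, at 5.93, and GAS5, at 5.53, and it was 2.19 in SNHG5. No relation between this density and the fold changes was tested.

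Other genes of snoRNA production were examined for comparison, by lists chosen by function. Largest and smallest fold changes are given among genes with a mean of at least 5 FPKM. Of 12 other noncoding hosts with a row, 0 passed both thresholds, and the median log2 fold change was -0.034. Before adjustment 2 were under 0.05, against 5.63% of all genes. C6orf48, a host also known as SNHG32, had the highest level of them, with 135 and 90.1 FPKM in shCtrl and 154 and 101 FPKM in shKIAA1429. It showed the same order by number as GAS5. SNHG9 had 7.45 and 7.28 FPKM in shCtrl and 4.57 and 4.96 FPKM in shKIAA1429 (log2 fold change -0.54 ± 0.15 SE, adjusted p = 0.730, limma). SNHG25 had 24.1 and 26.7 FPKM in shCtrl and 36.8 and 29.1 FPKM in shKIAA1429 (log2 fold change 0.36 ± 0.17 SE, adjusted p = 0.921, limma). The groups of both did not overlap, and over the list this held for 4 of 12 genes (3 higher, 1 lower), against 33.6% of all genes. SNHG20 ranged from 23.5 to 30.8 FPKM and its groups overlapped.

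Of 23 protein-coding hosts, 0 passed both thresholds, 4 were higher and 6 lower in shKIAA1429 without overlap (16.9% and 16.7% of all genes), and the median log2 fold change was -0.039. With upper quartile scaling 2 were higher and 8 lower, and with 1000000 summed FPKM 1 was higher and 8 lower. The largest positive values were those of EIF4A1 and EEF1B2 (log2 fold changes of 0.54 and 0.38), a helicase and an elongation factor of translation. In EIF4A1 the value rested on shKIAA1429 replicate 2, at 149 FPKM against 51.4 to 63.5 FPKM in the others. The largest negative values were -0.48 in TCP1, a chaperonin subunit, and -0.43 in EIF4G1, an initiation factor. The EIF4G1 value rested on shKIAA1429 replicate 2 as well, at 84.6 FPKM against 131 to 152 FPKM in the others. Of 17 genes for snoRNP proteins and their assembly, 0 passed, and the median was -0.0049 on the log2 scale. FBL, the methyltransferase of box C/D particles, had 94.5 and 103 FPKM in shCtrl and 123 and 135 FPKM in shKIAA1429 (log2 fold change 0.39 ± 0.12 SE, adjusted p = 0.822, limma). The core proteins NOP56 and NOP58 had log2 fold changes of -0.18 and -0.28, and SHQ1, an assembly factor of box H/ACA particles, had 0.37. The SHQ1 value rested on shKIAA1429 replicate 2, at 9.33 FPKM against 5.13 to 5.89 FPKM in the others.

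Of 20 genes of nonsense-mediated decay, 0 passed both thresholds, and the median log2 fold change was 0.0079. Before adjustment 0 were under 0.05, against 5.63% of all genes. With a mean of at least 5 FPKM, the largest values were 0.48 in GSPT1, a translation termination factor, and 0.41 in UPF3A. The smallest were -0.27 in EIF4A3, a core protein of the exon junction complex, and -0.21 in the nuclease SMG6. The GSPT1 value rested on shCtrl replicate 2, at 31.1 FPKM against 56.1 to 64.5 FPKM in the others. That of SMG6 rested on shCtrl replicate 1, at 12.2 FPKM against 8.30 to 8.76 FPKM in the others.

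For the 79 cytosolic ribosomal protein genes, the middle log2 difference (median) was 0.10, and the 7 hosts had the same value at this precision. With 1 library left out it ran from 0.049 to 0.16 for the ribosomal protein genes and from -0.073 to 0.42 for the hosts. The groups overlapped in each of the 7 hosts. Some ribosomal protein genes share the start letters of the hosts, and a link between these letters and the fold changes was not tested. By limma 0 of the 79 passed both thresholds, and 2 were under 0.05 before adjustment, against 5.63% of all genes. Of all genes tested, 16.9% were higher and 16.7% lower in shKIAA1429 without overlap. In 35 of the 79 the groups did not overlap and shKIAA1429 was the higher, and in 0 it was the lower. With each library scaled to 1000000 summed FPKM these counts were 23 and 2, against 12.3% and 22.2% of all genes under that scaling, and the medians were 0.052 for the ribosomal protein genes and -0.059 for all genes. Both libraries numbered 1 were above both numbered 2 in 19 of the 79, against 22.0% of all genes tested. The largest and smallest values were 0.59 in RPL9, 0.32 in RPL29, -0.15 in RPL32 and -0.093 in RPS2. The RPL9 value rested on shCtrl replicate 1, at 46.0 FPKM against 92.8 to 112 FPKM in the others, and its groups overlapped.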

How the data were processed

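The deposited files gave FPKM per annotated transcript, made by the authors with a tool not stated; the submitters' processing notes name Bowtie2 2.1.0 and hg19, and the study's methods describe TopHat, HTSeq and DESeq. FPKM were summed per gene identifier. Genes and transcripts with at least 1 FPKM in at least 2 libraries were compared as log2(FPKM + 1) with limma 3.58.1 in R 4.3.3 (eBayes with trend, two-sided, Benjamini-Hochberg over all features), without counts, so count tests were not run. The calculation was checked on simulated data with planted changes and normal noise, which was no measure of its power in these data. Members and lists were chosen with earlier results of these data known. Named were the 10 members, their transcripts with a mean of at least 5 FPKM, the 2 largest and 2 smallest fold changes of each list among genes with such a mean, and 5 genes of like profile. Exons came from GENCODE 44 on GRCh37 and snoRNA names from RefSeq. Strand and multiple-mapping rules were not stated, so antisense or copied genes remain uncertain. No other listed gene overlapped a host. Alternatives covered scaling, filter, pseudocount, variance, thresholds, replicate block and each library left out. Figures used matplotlib 3.10.9 in Python 3.11.15.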

Additional observations from a re-analysis of the deposited data

How the results depend on the processing

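The count of 0 genes and 0 transcripts past both thresholds (limma), and of 0 hosts among them, held under both other scalings, no filter, a filter of 1 FPKM in every library, a pseudocount of 0.1, a robust variance, the replicate block and an adjusted p alone. With a fold threshold alone 125 genes and 1807 transcripts passed, none of them of a host. Leaving out 1 library gave 0 to 1 genes, the 1 coming without shCtrl replicate 1. Classes from the files against the reference were not run, as both give 1 class to all host transcripts.

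The replicate numbers did not pair the libraries by the labels. With 2 pairs, the correlation of deviations was 0.324 over genes and 0.0642 over transcripts. The replicate block gave 0 calls, with 1269 genes at an unadjusted p under 0.05 against 656 without it. With the block, 1 of 7 hosts was under 0.05 before adjustment, against 0 of 7 without it. It was GAS5, with an unadjusted p of 0.0159 and an adjusted p of 0.407 (limma).

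With each library scaled to 1000000 summed FPKM, 1 host (SNHG16) had groups that did not overlap, against 0, and the log2 fold change of GAS5-224 turned to -0.011. Under the other scalings, filters, pseudocount and block, 42 values of the host genes kept their sign. The difference in intron-retaining share, with low transcripts left out, turned from 4.06 to -3.48 percentage points in SNHG15, from 2.86 to -1.37 in SNHG1 and from 0.0033 to -0.21 in SNHG8. Without 1 library it changed sign in 5 of 6 hosts, running from -8.89 to 1.04 in GAS5, -6.38 to 12.1 in SNHG1, -5.04 to 5.05 in SNHG8, -6.72 to 14.8 in SNHG15 and -4.43 to 0.66 in SNHG16. In SNHG5 it ran from -12.7 to -2.61.

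Leaving out 1 library left 2 to 7 hosts with groups that did not overlap, a comparison of 1 library with 2, and a median log2 fold change of the hosts from -0.073 to 0.42. The sign turned in 6 hosts, whose log2 fold changes ran from -0.034 to 0.69 (GAS5), -0.53 to 0.74 (SNHG1), -0.042 to 0.42 (SNHG5), -0.020 to 0.49 (SNHG6), -0.073 to 0.18 (SNHG8) and -0.66 to 0.11 (SNHG15). Among transcripts it turned in GAS5-209 (-0.016 to 1.12), GAS5-211 (-0.20 to 0.066), GAS5-221 (-0.42 to 1.63), GAS5-224 (-0.19 to 0.27), SNHG6-203 (-0.037 to 0.26), SNHG6-205 (-0.12 to 0.67), SNHG8-201 (-0.019 to 0.26), SNHG8-203 (-0.24 to 0.45), SNHG8-204 (-0.10 to 0.23), SNHG8-205 (-0.50 to 0.24) and SNHG16-207 (-0.18 to 0.12). Why these libraries decide the sign was not tested. With unknown depth, no counting error could be given.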
